A study of Rattus norvegicus and Mus musculus with 12 samples.

Results

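The genes of Wnt signalling were compared between IL-1β-treated and untreated chondrocytes of rats and mice. Members were picked out by gene name, with earlier results of these data known. They were the numbered genes of the Wnt ligand, frizzled receptor (Fzd), secreted frizzled-related protein (Sfrp), Dickkopf (Dkk) and R-spondin (Rspo) families, together with Frzb, Wif1, Notum, Lrp5, Lrp6, Ror1, Ror2, Znrf3, Axin1, Axin2, Apc, Ctnnb1, Lef1, Tcf7, Tcf7l1 and Tcf7l2. The rat table held 50 of these genes among 19687, and the mouse table held 54 among 28603. In all, 49 were found under the same symbol in both tables.

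The 12 RNA-seq libraries came from passage 1 chondrocytes of the articular cartilage of newborn animals. Rats were of the SD strain. The strain labels of the mouse libraries ran from C57BL/6 to C57BL/9, whereas the methods of the study name C57BL/6 mice alone. The rat control (RC) and mouse control (MC) groups were untreated, and the rat model (RM) and mouse model (MM) groups received 20 ng/ml IL-1β for 24 h, with 3 libraries in each group. The methods describe independent samples for each group but do not say how many animals gave each culture. The P values measure the spread between these libraries, which may be smaller than the spread between animals. The cells were taken out of their matrix and grown in culture, which limits them as a model of a joint.

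Wnt proteins are secreted ligands that bind a frizzled receptor at the cell surface. In the canonical branch the frizzled pairs with the coreceptor Lrp5 or Lrp6, β-catenin (Ctnnb1) escapes destruction and acts in the nucleus with the Tcf and Lef factors. Other Wnt proteins act without β-catenin, often through the Ror receptors. R-spondins amplify the signal, and the Sfrp, Dkk and Wif1 proteins restrain it outside the cell. In cartilage the pathway is known for its part in joint formation, chondrocyte maturation and matrix turnover, and Frzb has long been studied in osteoarthritis.

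The libraries held 20169272 to 25903459 counts in rat and 16841580 to 20048322 in mouse, so a gene listed at 0 allows a level of at most 0.116 to 0.178 CPM (counts scaled to the library total) in 1 library, counting error only. All 9 chondrocyte markers (Sox9, Col2a1, Acan and others) were detected in every group. Their summed FPKM (fragments per kilobase of transcript, scaled to the library total) was 4063 to 4731 in RC and 1430 to 1483 in RM, and 1947 to 1993 in MC and 170 to 182 in MM. The summed FPKM of 6 fibroblast and synovial markers was 1639 to 1797 in RC, 1666 to 1697 in RM, 412 to 423 in MC and 1046 to 1065 in MM. Osteoblast markers summed to 8.24 to 9.13 in RC, 2.07 to 2.99 in RM, 16.2 to 17.0 in MC and 1.69 to 1.83 in MM. Macrophage and leukocyte markers summed to 5.33 to 5.76 in RC, 7.62 to 10.3 in RM, 3.72 to 4.18 in MC and 8.20 to 9.67 in MM, with Ptprc under 0.1 in each group. Muscle markers were between 0.390 and 4.35, and endothelial markers did not exceed 0.505 in any library. The chondrocyte, osteoblast, macrophage and muscle sums did not overlap between control and model groups in either species, nor did the fibroblast sums in mouse. The fibroblast sums overlapped in rat, and the endothelial sums in both species. The part of these levels in the results was not tested. In such bulk samples fewer cells of a type and less RNA per cell cannot be told apart.

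After the filter on low counts, 35 rat and 41 mouse members were tested. Called genes had an adjusted P below 0.05 in edgeR's quasi-likelihood test on the counts, with Benjamini-Hochberg adjustment over all genes tested. In rat, 6 members had upregulated expression in the RM group, beside 18.3% of all 13303 genes tested, and 13 had downregulated expression, beside 16.8%. In mouse, 10 members had upregulated expression in the MM group, beside 37.4% of all 14774 genes tested, and 25 had downregulated expression, beside 37.6%. Replicates lay closer together in mouse (common biological coefficient of variation 0.0318) than in rat (0.106), so P values of rat and mouse are not directly comparable. The median log2 fold change of the tested members was -0.12 in rat and -0.69 in mouse, and that of all genes tested was 0.01 and -0.02. The tested members were thus placed below the middle of all genes in both species. Mouse values depend on the scaling: with library sizes alone, the median of all mouse genes was -0.30 and that of the members -0.97. In that setting 7 mouse members were called higher and 28 lower. The mouse FPKM carries the library size alone, whereas log2 fold changes below are those of the count fit with TMM scaling. Rat and mouse FPKM come from different genome builds and gene tables, so levels are not directly comparable between the species.

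Stricter criteria, after those in the methods, set limits on the size of the log2 fold change (0.85), the unadjusted P (below 0.05) and the FPKM (1 or more in some library). The methods call the 0.85 a fold change, which was read here as the size of a log2 value. Under these stricter criteria 2 rat members were higher (Fzd1 and Sfrp2), beside 4.64% of all genes tested, and 2 were lower (Fzd4 and Fzd9), beside 3.9%. In mouse 6 members were higher, beside 12.6%, and 16 were lower, beside 13%.

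The remaining members were scarce. The 15 rat members that did not pass the filter each had at most 51 counts over the 6 rat libraries, and 5 of them (Fzd8, Fzd10, Wnt1, Wnt2 and Wnt3) were at 0 in all. In mouse 13 members did not pass, the highest with 46 counts, and Wnt3 alone was at 0 in all 6 libraries. Among these, rat Dkk2 had 8 counts in RC (4, 0 and 4) and 0 in RM, so the groups overlapped. Against a floor of 3 counts over the group the ratio was 2.73, which leaves out the counting error of the 8. Wnt6 had 27 counts in MC and 1 in MM, a ratio of 24.5 with a counting interval from 4.03 to 1000. Wnt1 had 3 counts in MC and 13 in MM, a ratio of 4.78 with an interval from 1.31 to 26.2. The intervals for mouse Dkk1, Rspo1 and Rspo4, with 1 to 6 counts in a group, all included a ratio of 1.

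**Figure D1:**
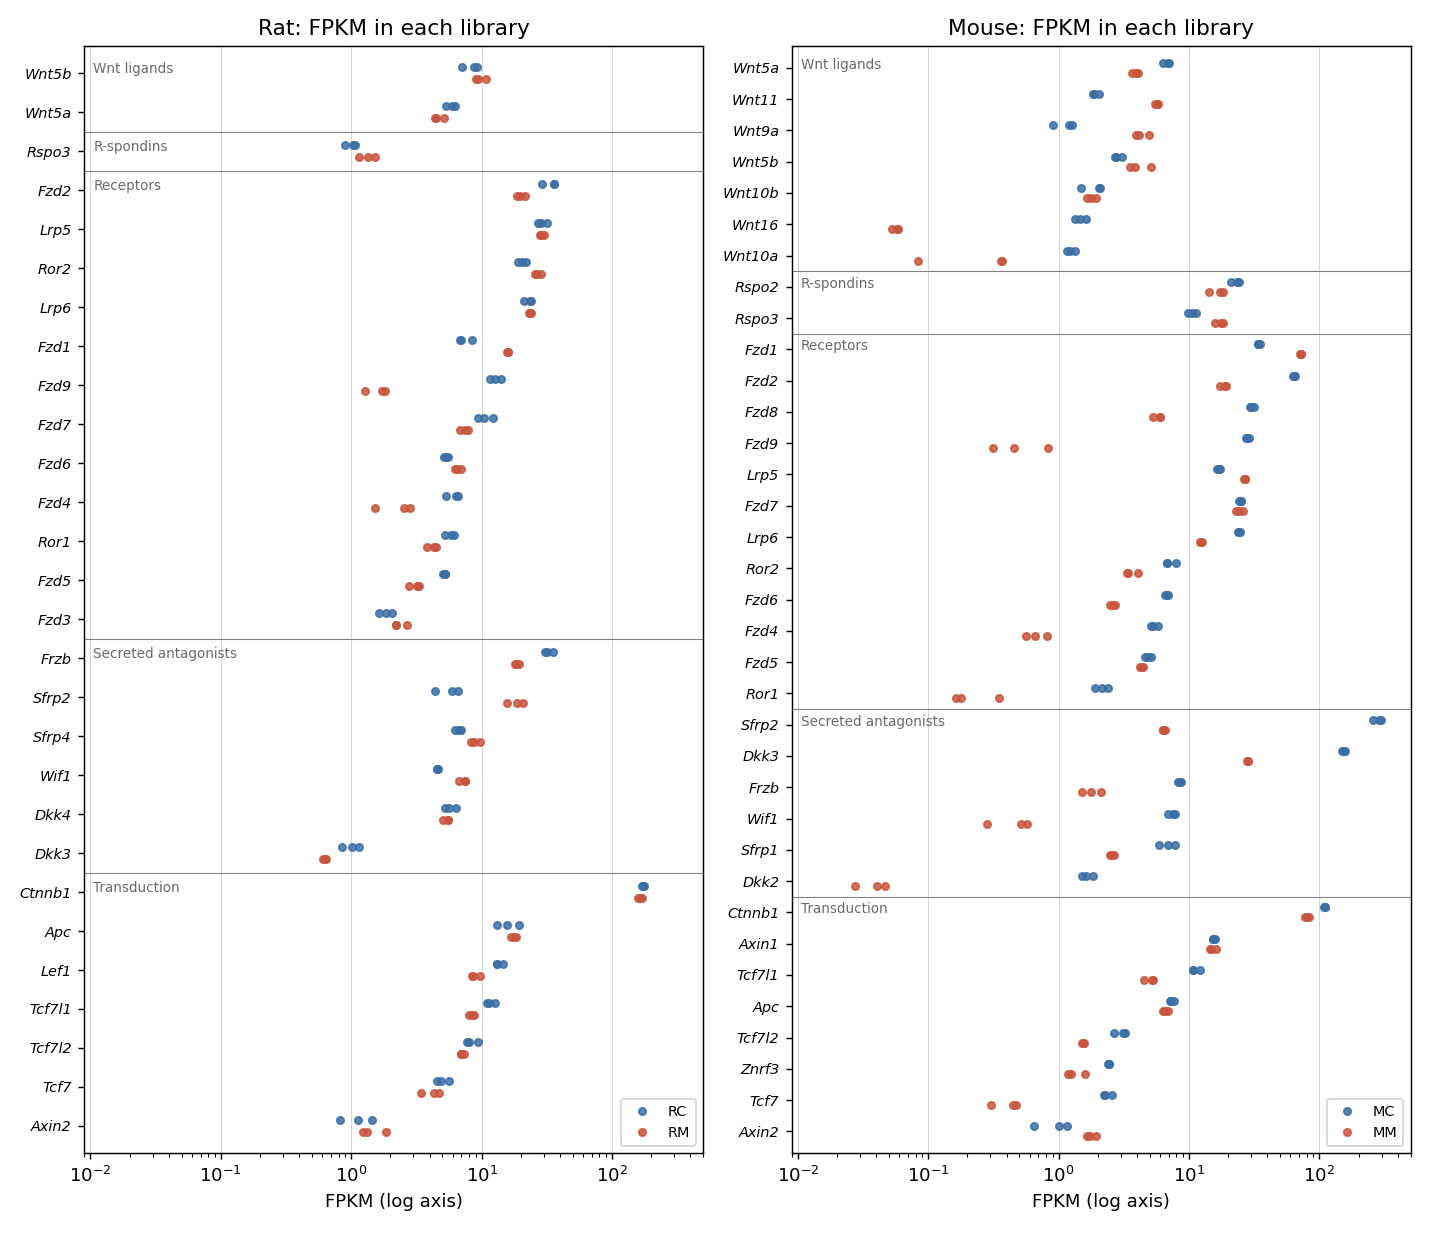
FPKM (horizontal log axis) in each library of the 28 rat members (left) and 35 mouse members (right) with a mean FPKM of 1 or more in a group, 1 point per library, blue for the control and red for the model group. Sfrp2 and Wif1 lie higher in RM than RC and lower in MM than MC, while Fzd9 lies lower in the model group of both species.

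Among the secreted antagonists, Sfrp2 and Wif1 rose in rat and fell in mouse, while Frzb and Dkk3 fell in both. Of 8 tested in rat, 3 had upregulated expression (Sfrp2, Wif1 and Sfrp4) and 2 downregulated (Frzb and Dkk3). Of 8 tested in mouse, all had a log2 value below 0, and 6 were downregulated (Sfrp1, Sfrp2, Frzb, Wif1, Dkk2 and Dkk3). Among all genes tested, 18.3% were higher and 16.8% lower in RM, and 37.4% higher and 37.6% lower in MM. The share of antagonists was not tested against these.

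Sfrp2 (ENSRNOG00000009465 in rat, ENSMUSG00000027996 in mouse) encodes a secreted protein with a frizzled-like domain that binds Wnt ligands. Its FPKM was 5.97, 6.60 and 4.39 in RC, and 15.6, 18.9 and 20.9 in RM. In mouse it was 287, 298 and 256 in MC, and 6.60, 6.32 and 6.32 in MM. No RM library overlapped RC and no MM library overlapped MC, and the shift went up in rat and down in mouse. The log2 fold change was 1.69 ± 0.15 (SE, n = 3 per group) in rat (edgeR, adjusted P = 1.58e-05) and -5.17 ± 0.05 in mouse (edgeR, adjusted P = 3.78e-66). In GRCm38 the mouse gene lies at chr3:83766321-83774316 on the plus strand, and 16.1% of its exon bases also belong to Gm26771 on the opposite strand. The strand setting of the counting was not given in the sources used here, so reads of the 2 genes over those bases cannot be told apart.

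Wif1, which binds Wnt proteins directly, had the same pair of directions at a lower level. Its FPKM was 4.60, 4.53 and 4.54 in RC and 7.47, 7.47 and 6.68 in RM. The mouse values were 7.49, 6.90 and 7.75 in MC and 0.514, 0.569 and 0.283 in MM. The groups of each species did not overlap. Wif1 rose by 0.64 ± 0.10 on the log2 scale in rat (edgeR, adjusted P = 0.000718) and changed by -3.71 ± 0.16 in mouse (edgeR, adjusted P = 3.9e-30). The mouse gene lies at chr10:121033960-121100650.

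The rat promoters of Sfrp2 and Wif1 are shown because these were the antagonists that rose in rat and fell in mouse. Each spans 250 bases before and 50 after the start of the gene in the RefSeq annotation of GRCr8, which is a later build than that of the rat counts. Sfrp2 is at chr2:171387286-171387585 and Wif1 at chr7:58433329-58433628, both on the plus strand.
Sfrp2: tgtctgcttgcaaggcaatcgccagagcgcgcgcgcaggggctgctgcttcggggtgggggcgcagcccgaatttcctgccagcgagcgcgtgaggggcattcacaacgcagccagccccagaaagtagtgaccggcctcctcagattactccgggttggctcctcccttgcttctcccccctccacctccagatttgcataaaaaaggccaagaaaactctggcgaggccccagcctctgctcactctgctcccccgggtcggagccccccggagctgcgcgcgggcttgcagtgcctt
Wif1: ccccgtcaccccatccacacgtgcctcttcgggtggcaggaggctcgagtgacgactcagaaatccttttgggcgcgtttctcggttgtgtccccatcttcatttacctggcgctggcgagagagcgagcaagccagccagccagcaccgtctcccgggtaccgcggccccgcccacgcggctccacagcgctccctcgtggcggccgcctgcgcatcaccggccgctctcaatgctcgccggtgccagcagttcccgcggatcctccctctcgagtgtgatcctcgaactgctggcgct
The Sfrp2 window was 65% G and C with 21 CpG sites, and the Wif1 window 67% with 32. No letters are in capitals, since neither the TCF/LEF core nor the NF-κB consensus described with Axin2 was found in either window.

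Frzb (also known as Sfrp3), which likewise binds Wnt ligands, led the rat antagonists. It had an FPKM of 30.6, 35.5 and 31.7 in RC and 18.1, 19.5 and 18.4 in RM. In mouse the values were 8.21, 8.60 and 8.76 in MC and 1.51, 1.78 and 2.12 in MM. All model libraries were below all control libraries in both species. The log2 fold change was -0.82 ± 0.08 in rat (edgeR, adjusted P = 3.29e-05) and -1.97 ± 0.10 in mouse (edgeR, adjusted P = 1.46e-26).

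Dkk3, a divergent Dickkopf protein whose action on Wnt signalling is less settled, had a high FPKM in the mouse table and a low one in the rat table. Its FPKM was 150, 154 and 159 in MC and 27.9, 28.4 and 28.2 in MM, against 0.85 to 1.15 in RC and 0.604 to 0.640 in RM. Neither species showed overlap. Dkk3 changed by -2.17 ± 0.03 on the log2 scale in mouse (edgeR, adjusted P = 3.6e-55) and -0.70 ± 0.18 in rat (edgeR, adjusted P = 0.011). The rat call was lost without RC3, with an adjusted P of 0.0501 in edgeR.

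The other antagonists were at lower levels. Sfrp4 had an FPKM of 7.00, 6.72 and 6.29 in RC and 9.67, 8.77 and 8.23 in RM, with no overlap and a log2 fold change of 0.40 ± 0.09 (edgeR, adjusted P = 0.00525). In mouse Sfrp4 was scarce, at 0.503 to 0.573 in MC and 0.383 to 0.418 in MM, and did not pass edgeR's test. Sfrp1 was at 7.78, 6.94 and 5.85 in MC and 2.58, 2.48 and 2.66 in MM, with a log2 fold change of -1.14 ± 0.09 (edgeR, adjusted P = 8.5e-18). In rat Sfrp1 was between 0.387 and 0.674 in all libraries, with a log2 value of 0.43 ± 0.23 that did not pass. Dkk2, which blocks Lrp5 and Lrp6, went from 1.84, 1.64 and 1.52 in MC to 0.0404, 0.0276 and 0.0463 in MM, with a log2 fold change of -5.12 ± 0.33 from 320 and 8 counts (edgeR, adjusted P = 5.85e-22). Rat Dkk4, another Lrp5 and Lrp6 blocker, was at 5.26 to 6.42 in RC and 5.02 to 5.54 in RM with overlap. Notum, an enzyme that removes the lipid from Wnt proteins, passed edgeR's test in neither species at a mean FPKM below 1. By limma on log2(FPKM + 1), mouse Sfrp4 and Notum were called lower, at -0.13 and -0.18 (adjusted P = 0.0179 and 0.0149).

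Summing the FPKM of all antagonists shows how far the mouse pool was reduced. The sum was 464, 477 and 439 in MC and 40.1, 40.5 and 40.6 in MM, an 11.4-fold lower mean. In rat it was 55.6, 60.4 and 55.4 in RC and 57.4, 61.8 and 61.1 in RM, so the groups overlapped. The make-up of the rat pool differed all the same. Frzb took 57.0% ± 1.9 (SD, n = 3) of the rat sum in RC and 31.1% ± 0.9 in RM, while Sfrp2 took 9.86% in RC and 30.7% ± 3.5 in RM. In MC, Sfrp2 gave 60.9% ± 2.3 and Dkk3 33.5% ± 2.2 of the sum, and in MM the shares were 15.9% ± 0.5 and 69.7% ± 0.2. Without these 2 genes the mouse mean was 25.7 ± 0.8 in MC and 5.84 ± 0.22 in MM, 4.41-fold lower. The rat mean without them was 50.5 ± 2.1 in RC and 41.0 ± 1.4 in RM.

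**Figure D2:**
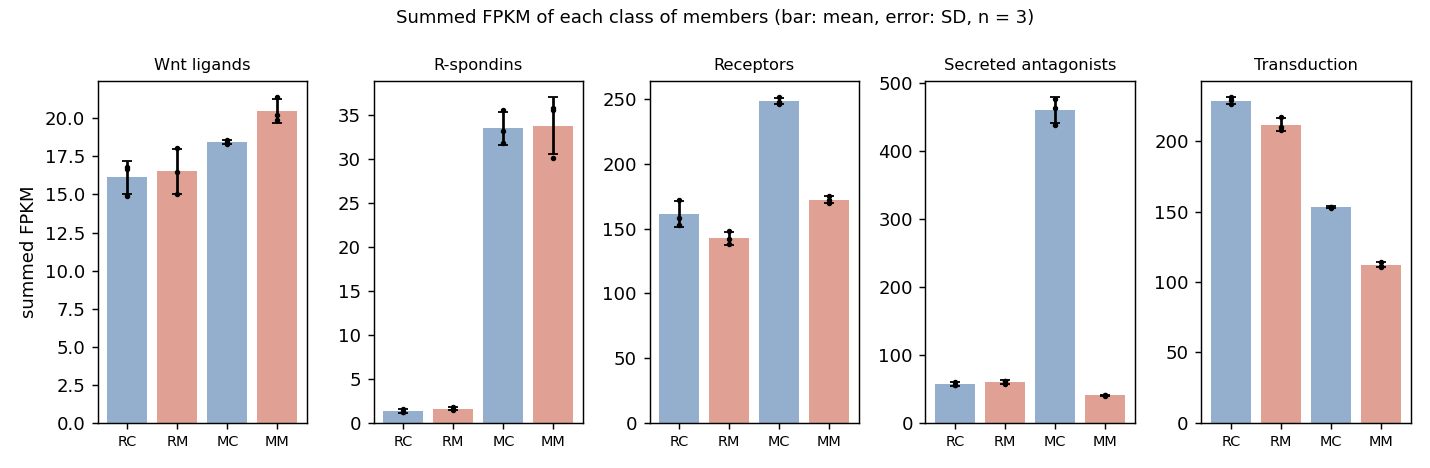
Summed FPKM (vertical linear axis) of each class of members in RC, RM, MC and MM, with bars at the mean of 3 libraries, error bars of 1 SD and 1 point per library. The mouse antagonists lie between 439 and 477 in MC and between 40.1 and 40.6 in MM, whereas the rat antagonists of RC and RM overlap, between 55.4 and 61.8.

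The receptors were called in both directions. In rat 12 were tested, 3 with upregulated expression (Fzd1, Fzd6 and Ror2) and 6 with downregulated expression (Fzd2, Fzd4, Fzd5, Fzd7, Fzd9 and Ror1). In mouse 13 were tested, 3 higher (Fzd1, Fzd7 and Lrp5) and 8 lower (Fzd2, Fzd4, Fzd6, Fzd8, Fzd9, Lrp6, Ror1 and Ror2). Over all genes tested, 18.3% (RM) and 37.4% (MM) were higher and 16.8% (RM) and 37.6% (MM) lower. The share of receptors was not tested against these. With library sizes alone, Fzd7 is no longer among the higher mouse genes, with a log2 value of -0.02.

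Fzd9 had the largest fall among the tested members of each species. Its FPKM was 11.7, 14.0 and 12.8 in RC and 1.28, 1.82 and 1.71 in RM. The mouse libraries had 28.6, 27.6 and 28.1 in MC and 0.457, 0.312 and 0.823 in MM. Every model library lay far below every control library. The log2 fold change was -3.00 ± 0.14 in rat (edgeR, adjusted P = 1.44e-07) and -5.47 ± 0.12 in mouse (edgeR, adjusted P = 2.98e-47). The mouse gene lies at chr5:135248938-135251230 on the minus strand. The rat promoter is shown because its gene had this fall, in RefSeq at chr12:27063390-27063689 of GRCr8 on the plus strand, 66.7% G and C with 26 CpG sites and with neither motif.
Fzd9: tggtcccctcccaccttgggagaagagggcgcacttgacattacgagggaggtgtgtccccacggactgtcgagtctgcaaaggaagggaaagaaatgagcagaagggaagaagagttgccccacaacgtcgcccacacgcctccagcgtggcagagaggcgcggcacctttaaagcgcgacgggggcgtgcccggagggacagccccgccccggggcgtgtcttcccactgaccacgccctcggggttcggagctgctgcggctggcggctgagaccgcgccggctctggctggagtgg

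Fzd1 was the receptor called higher in both species. It had an FPKM of 6.85, 8.44 and 7.00 in RC and 15.6, 15.9 and 16.1 in RM. The mouse values were 34.0, 34.8 and 33.8 in MC and 71.5, 72.7 and 72.4 in MM. There was no overlap in either species. The rise was 1.08 ± 0.09 on the log2 scale in rat (edgeR, adjusted P = 1.07e-05) and 1.36 ± 0.03 in mouse (edgeR, adjusted P = 4.56e-44). In MM, Fzd1 gave 41.9% ± 0.4 of the summed receptor FPKM, against 13.7% ± 0.1 in MC.

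Fzd2, a receptor often paired with Wnt5a, led the receptors of both control groups. Its FPKM was 29.0, 36.0 and 36.2 in RC and 18.8, 19.6 and 21.6 in RM, a log2 fold change of -0.77 ± 0.10 (edgeR, adjusted P = 0.000215). Mouse Fzd2 was at 63.6, 64.7 and 62.3 in MC and 17.4, 19.0 and 19.2 in MM, a log2 fold change of -1.50 ± 0.04 (edgeR, adjusted P = 2.17e-42). Model and control libraries were apart in both. Fzd4, which also binds Norrin, was at 6.63, 6.36 and 5.37 in RC and 1.51, 2.84 and 2.54 in RM. It was at 5.76, 5.15 and 5.31 in MC and 0.817, 0.654 and 0.562 in MM. Its groups did not overlap, and the log2 fold change was -1.42 ± 0.19 in rat (edgeR, adjusted P = 0.000211) and -2.71 ± 0.10 in mouse (edgeR, adjusted P = 9.48e-34).

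Other frizzled genes differed by species in change or in the level listed. Fzd8 was at 0 in all 6 rat libraries and was not tested in rat. Whether that 0 comes from the cells or from the rat gene model was not tested. In mouse Fzd8 was at 29.7, 31.4 and 29.2 in MC and 5.95, 5.32 and 6.04 in MM, a log2 fold change of -2.10 ± 0.05 without overlap (edgeR, adjusted P = 1.45e-46). Fzd5 was at 5.21, 5.22 and 5.04 in RC and 3.29, 2.78 and 3.20 in RM, without overlap, and fell by 0.76 ± 0.12 on the log2 scale (edgeR, adjusted P = 0.000874). In mouse Fzd5 was at 4.61 to 5.12 in MC and 4.24 to 4.44 in MM, without overlap. It was not called with TMM scaling, at 0.12 ± 0.06. With library sizes alone it was called lower, at -0.16 (edgeR, adjusted P = 0.0237). By limma on log2(FPKM + 1) it was also called lower, at -0.13 (adjusted P = 0.0322). Without MC2 it was called higher, at 0.16 (edgeR, adjusted P = 0.0469). Of the exon bases of mouse Fzd5, 17.8% are shared with Gm38058. Fzd7 was at 10.4, 12.3 and 9.46 in RC and 6.86, 7.45 and 7.89 in RM, and fell by 0.55 ± 0.11 on the log2 scale without overlap (edgeR, adjusted P = 0.00297). In mouse the Fzd7 libraries overlapped, at 24.1 to 25.1 in MC and 23.1 to 25.8 in MM, and the value of 0.25 ± 0.04 depends on the scaling as stated.

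Fzd6 had opposite directions, though the rat call was weak. It was at 5.17, 5.58 and 5.32 in RC and 6.99, 6.28 and 6.45 in RM, a log2 fold change of 0.28 ± 0.08 (edgeR, adjusted P = 0.0234). That call was lost without RC3, RM1, RM2 or RM3, with edgeR adjusted P values of 0.0519 to 0.0986, and with the replicate number as a block, at 0.052. In mouse Fzd6 was at 6.5, 6.90 and 6.83 in MC and 2.70, 2.63 and 2.47 in MM, a log2 fold change of -1.09 ± 0.08 (edgeR, adjusted P = 1.89e-19). The libraries of each species were apart. Fzd3 was called in neither species, although the rat libraries did not overlap, at 1.65 to 2.05 in RC and 2.20 to 2.67 in RM.

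The coreceptors Lrp5 and Lrp6, which carry the canonical signal, did not pass the test in rat, where their log2 values were -0.02 ± 0.08 and 0.02 ± 0.07. The rat groups of both overlapped, with Lrp5 at 26.9 to 31.6 in RC and 28.0 to 30.2 in RM and Lrp6 at 21.3 to 24.1 and 23.2 to 23.9. In mouse Lrp5 was at 16.4, 17.3 and 16.9 in MC and 27.0, 26.5 and 27.1 in MM, and rose by 0.95 ± 0.03 (edgeR, adjusted P = 2.25e-35). Lrp6 was at 23.9, 24.2 and 24.7 in MC and 12.5, 12.1 and 12.3 in MM, with a log2 fold change of -0.70 ± 0.03 (edgeR, adjusted P = 4.01e-29). Both mouse genes had no overlap between groups, so the coreceptor with the higher level was Lrp6 in MC and Lrp5 in MM.

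Ror1 and Ror2 are tyrosine kinase receptors of the β-catenin-independent branch. Ror1 was at 6.19, 5.79 and 5.20 in RC and 4.46, 4.33 and 3.79 in RM, with a log2 fold change of -0.47 ± 0.10 (edgeR, adjusted P = 0.00434). It was at 2.15, 1.92 and 2.41 in MC and 0.165, 0.346 and 0.179 in MM, with a log2 fold change of -2.94 ± 0.18 (edgeR, adjusted P = 9.05e-23). Ror1 thus had lower values in every model library of both species. Ror2 was at 18.9, 22.1 and 20.5 in RC and 25.6, 26.5 and 28.6 in RM, and rose by 0.37 ± 0.08 (edgeR, adjusted P = 0.00525). In mouse it was at 6.82, 7.89 and 6.84 in MC and 3.41, 4.05 and 3.37 in MM, with a log2 fold change of -0.71 ± 0.08 (edgeR, adjusted P = 9.63e-12). Ror2 had no overlap in either species, with the RM libraries above RC and the MM libraries below MC.

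The Wnt ligands were less abundant than the antagonists and receptors. Their summed FPKM was 16.1 ± 1.1 in RC, 16.5 ± 1.5 in RM, 18.5 ± 0.1 in MC and 20.5 ± 0.8 in MM (SD, n = 3). In rat 6 were tested, and 0 had upregulated expression in edgeR, in DESeq2 or at an unadjusted edgeR P below 0.05. Wnt4 and Wnt5a were lower. Of all rat genes tested, 18.3% were higher and 16.8% lower, and the share of ligands was not tested against these. In mouse 9 were tested, 3 were higher (Wnt5b, Wnt9a and Wnt11) and 4 lower (Wnt4, Wnt5a, Wnt10a and Wnt16), near the 37.4% and 37.6% of all mouse genes tested.

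Wnt5a, a ligand known for β-catenin-independent signalling, was at 6.23, 5.91 and 5.32 in RC and 4.5, 4.39 and 5.15 in RM. It was at 7.04, 6.87 and 6.27 in MC and 4.05, 3.63 and 3.90 in MM. The model libraries were below the control libraries in both. The log2 fold change was -0.33 ± 0.09 in rat (edgeR, adjusted P = 0.0211) and -0.52 ± 0.06 in mouse (edgeR, adjusted P = 1.24e-11). The rat call was lost without RM1 or RM2, with adjusted P values of 0.0825 and 0.0959 in edgeR. Its relative Wnt5b was at 7.13, 9.21 and 8.81 in RC and 10.9, 9.14 and 9.44 in RM, with overlap and without a call. In mouse Wnt5b was at 2.73, 2.75 and 3.06 in MC and 3.83, 3.51 and 5.09 in MM, without overlap, and rose by 0.81 ± 0.12 (edgeR, adjusted P = 4.18e-08). Wnt5b took 51.9% of the rat ligand sum in RC and 59.5% in RM.

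In mouse the leading ligand was not the same in the control and model groups. Wnt11, which acts on cell movement and polarity, was at 1.85, 2.04 and 1.86 in MC and 5.66, 5.47 and 5.78 in MM, a log2 fold change of 1.84 ± 0.09 (edgeR, adjusted P = 1.36e-26). Wnt9a, a ligand of the developing joint, was at 0.912, 1.2 and 1.27 in MC and 3.94, 4.93 and 4.16 in MM, a log2 fold change of 2.22 ± 0.13 (edgeR, adjusted P = 1.89e-23). Neither overlapped between groups. Wnt5a gave 36.5% ± 2.5 of the ligand sum in MC and 18.8% ± 1.1 in MM, and Wnt11 gave 10.4% ± 0.6 and 27.5% ± 0.5. In rat both Wnt11 and Wnt9a were near the detection limit, with 47 and 34 Wnt11 counts and 19 and 27 Wnt9a counts in RC and RM. Without RM3, which held the highest Wnt11 FPKM of its group (0.404, against 0.0384 and 0.105), rat Wnt11 was called lower at -1.80 (edgeR, adjusted P = 0.0323).

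The mouse ligands that fell were at low levels in MC and near or below an FPKM of 0.4 in MM, apart from Wnt5a. Wnt16, a ligand studied in joint injury, was at 1.34, 1.62 and 1.47 in MC and 0.0572, 0.0586 and 0.0525 in MM, with a log2 fold change of -4.40 ± 0.29 from 334 and 14 counts (edgeR, adjusted P = 2.07e-21). Wnt10a was at 1.23, 1.16 and 1.33 in MC and 0.364, 0.0829 and 0.371 in MM, with a log2 fold change of -1.91 ± 0.31 (edgeR, adjusted P = 1.11e-07). Both were without overlap. Wnt10b was at 2.03, 1.48 and 2.06 in MC and 1.95, 1.76 and 1.67 in MM and was not called. Wnt4 stayed below an FPKM of 1 in all groups and was lower in the model group of both species, at -1.50 ± 0.30 in rat (edgeR, adjusted P = 0.00329) and -2.98 ± 0.39 in mouse (edgeR, adjusted P = 7.06e-10).

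The R-spondins, which amplify Wnt signals by sparing frizzled receptors from Znrf3, had a higher FPKM in the mouse table than in the rat table. Their summed FPKM was 33.5 ± 1.9 in MC and 33.8 ± 3.2 in MM, against 1.35 ± 0.21 in RC and 1.60 ± 0.16 in RM. Rspo3 was at 10.6, 11.2 and 9.86 in MC and 17.5, 18.2 and 15.8 in MM, without overlap, and rose by 0.98 ± 0.06 (edgeR, adjusted P = 5.36e-23). In rat Rspo3 was at 1.03, 0.896 and 1.08 in RC and 1.34, 1.52 and 1.14 in RM, without overlap but with 0.40 ± 0.19 that did not pass. Rspo2 was at 21.1, 24.2 and 23.1 in MC and 18.2, 17.2 and 14.3 in MM, without overlap. The mouse log2 fold change of Rspo2, -0.18 ± 0.05, passed in edgeR (adjusted P = 0.00124), but not in DESeq2 (adjusted P = 0.171) nor in edgeR without MM3 (-0.08, adjusted P = 0.132). In rat Rspo2 had 44 counts in RC and 13 in RM, with a log2 fold change of -1.77 ± 0.50 (edgeR, adjusted P = 0.0203). That call was lost in edgeR without RC3, RM1 or RM3, with adjusted P values of 0.064 to 0.0888. The share of Rspo3 among the mouse R-spondins was 31.6% ± 1.8 in MC and 51.0% ± 1.8 in MM.

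Of the transduction genes, β-catenin and its partners, 7 were tested in rat and 9 in mouse. In rat 0 had upregulated expression in edgeR, in DESeq2 or at an unadjusted edgeR P below 0.05, and Lef1 and Tcf7l1 were lower. In mouse Apc, Axin1 and Axin2 were higher and Ctnnb1, Lef1, Tcf7, Tcf7l1, Tcf7l2 and Znrf3 were lower, but with library sizes alone Apc and Axin1 turned negative. Among all genes tested, 18.3% were higher and 16.8% lower in RM, and 37.4% higher and 37.6% lower in MM. The share of transduction genes was not tested against these.

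Axin2, a scaffold of the β-catenin destruction complex, was at 1.16, 0.647 and 1.01 in MC and 1.64, 1.74 and 1.94 in MM. The MM libraries all lay above MC. Its log2 fold change was 1.19 ± 0.14 (edgeR, adjusted P = 3.82e-11), and it was 0.91 with library sizes alone. In rat Axin2 was at 0.816, 1.13 and 1.45 in RC and 1.84, 1.33 and 1.24 in RM, with overlap and a value of 0.36 ± 0.23 that did not pass. The mouse gene lies at chr11:108920349-108950783 on the plus strand. Whether canonical signalling changed was not tested.

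The rat Axin2 promoter is shown because it held 2 matches to the TCF/LEF core, the letters bound by the Tcf and Lef factors. The core was searched as CTTTGAA or CTTTGAT on both strands, and the matches are in capitals, with their first bases 232 and 132 before the start. The window is at chr10:94398535-94398834 of GRCr8, on the plus strand, with 45.7% G and C and 5 CpG sites.
Axin2: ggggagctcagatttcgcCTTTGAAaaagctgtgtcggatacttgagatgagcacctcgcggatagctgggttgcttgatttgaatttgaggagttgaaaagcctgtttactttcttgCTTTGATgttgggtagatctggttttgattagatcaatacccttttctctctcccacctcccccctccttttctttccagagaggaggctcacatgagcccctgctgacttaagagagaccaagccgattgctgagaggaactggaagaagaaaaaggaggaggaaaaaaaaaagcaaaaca
Of the 33469 rat promoters of the same length in RefSeq, 8.73% held the core. It was in 5 of the 37 members matched by symbol, namely Axin2, Dkk1, Fzd7, Tcf7 and Wnt8a. The NF-κB consensus, known as the letters bound by a factor downstream of IL-1β, was in 4.18% of all promoters and in 2 of the 37, Rspo1 and Wnt10a. A match describes the letters alone, and none of these shares was tested.

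Of the nuclear partners of β-catenin, Lef1 and Tcf7l1 were lower in RM, and Lef1, Tcf7, Tcf7l1 and Tcf7l2 in MM. Lef1 was at 13.0, 14.7 and 13.2 in RC and 9.79, 8.39 and 8.53 in RM, without overlap, with a log2 fold change of -0.63 ± 0.09 (edgeR, adjusted P = 0.000386). In mouse it was scarce, with 136 counts in MC and 9 in MM, and fell by 3.72 ± 0.42 on the log2 scale (edgeR, adjusted P = 5.64e-12). Tcf7l1, mostly a repressor in this family, was at 10.9, 12.6 and 11.5 in RC and 8.39, 8.06 and 8.80 in RM, a log2 fold change of -0.49 ± 0.08 (edgeR, adjusted P = 0.00107). It was at 10.7, 10.7 and 12.2 in MC and 5.17, 5.29 and 4.55 in MM, a log2 fold change of -0.88 ± 0.07 (edgeR, adjusted P = 9.48e-18). Again no model library reached the control libraries. Tcf7 was at 2.58, 2.22 and 2.27 in MC and 0.475, 0.448 and 0.305 in MM, a log2 fold change of -2.23 ± 0.22 (edgeR, adjusted P = 2.42e-14), while the rat groups overlapped at 4.56 to 5.61 and 3.42 to 4.74. Tcf7l2 was at 3.25, 2.67 and 3.12 in MC and 1.51, 1.58 and 1.54 in MM, a log2 fold change of -0.69 ± 0.09 (edgeR, adjusted P = 1.23e-10). In rat Tcf7l2, at 7.77 to 9.31 in RC and 6.96 to 7.39 in RM, just missed the threshold (edgeR, adjusted P = 0.0512), and it passed without RC1 (adjusted P = 0.0162).

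Ctnnb1 was the most abundant transduction gene, with a small shift. It was at 170, 175 and 174 in RC and 160, 169 and 163 in RM and was not called, at -0.09 ± 0.06. In mouse it was at 110, 111 and 109 in MC and 77.6, 83.1 and 80.9 in MM, with a log2 fold change of -0.17 ± 0.03 (edgeR, adjusted P = 2.87e-07), and 14.6% of its exon bases are shared with Ulk4. Znrf3, the ligase that removes frizzled receptors, was at 2.44, 2.38 and 2.44 in MC and 1.59, 1.17 and 1.24 in MM, a log2 fold change of -0.58 ± 0.10 without overlap (edgeR, adjusted P = 4.93e-07). Apc was at 7.09, 7.22 and 7.63 in MC and 6.85, 6.58 and 6.35 in MM, with a log2 value of 0.13 ± 0.04. With library sizes alone mouse Apc was called lower, at -0.15 (edgeR, adjusted P = 0.000723). Rat Apc was between 13.1 and 19.4 in all libraries, with overlap and without a call, although it was called higher without RC1 (0.27, edgeR adjusted P = 0.0119). Axin1 was at 15.2 to 15.7 in MC and 14.5 to 16.0 in MM with overlap, at 0.25 ± 0.05 with TMM scaling and -0.02 with library sizes alone.

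**Figure D3:**
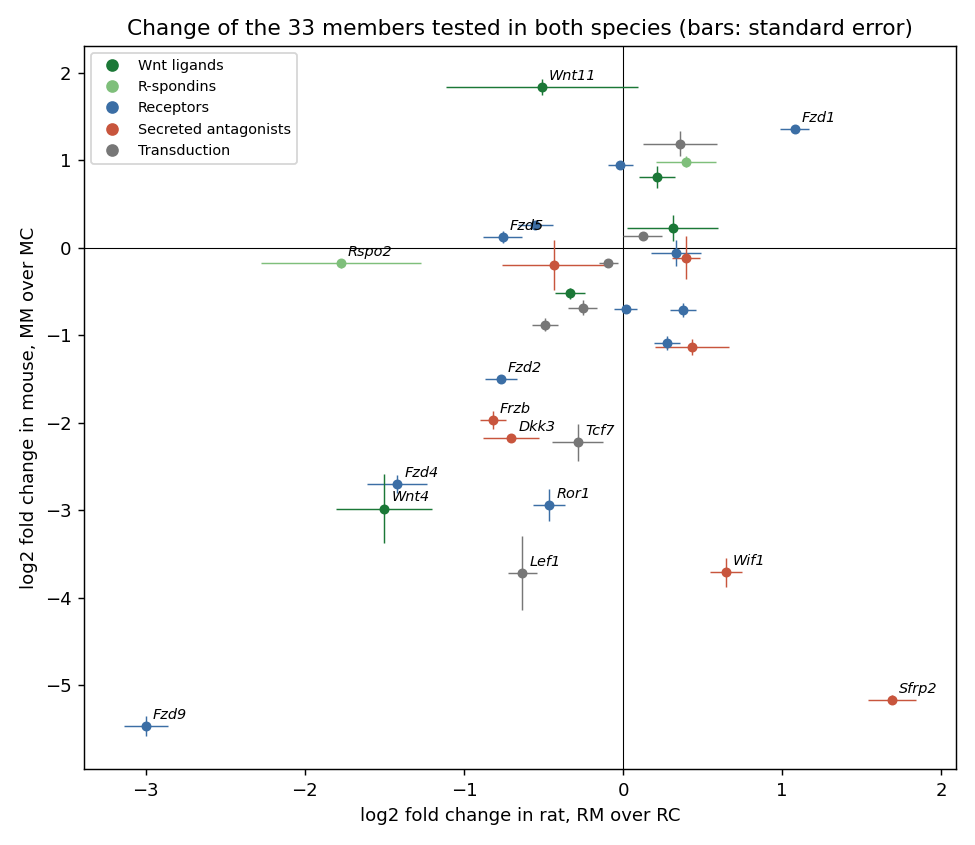
Log2 fold change in mouse (MM over MC, vertical axis) against rat (RM over RC, horizontal axis) for the 33 members tested in both species, coloured by class, with bars of 1 standard error. Sfrp2 (1.69 in rat, -5.17 in mouse) and Wif1 lie at the lower right, Fzd9 (-3.00, -5.47) at the lower left and Fzd1 (1.08, 1.36) at the upper right.

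The study asked where rat and mouse chondrocytes respond alike, and 33 members could be compared. Fzd1 was higher in both species. Another 11 members were lower in both (Dkk3, Frzb, Fzd2, Fzd4, Fzd9, Lef1, Ror1, Rspo2, Tcf7l1, Wnt4 and Wnt5a). Among them, the calls of Rspo2 in both species, and of Dkk3, Wnt4 and Wnt5a in rat, were lost in some alternative fits. Fzd6, Ror2, Sfrp2 and Wif1 were higher in rat and lower in mouse, with the rat call of Fzd6 lost in some fits. Fzd7 was lower in rat and higher in mouse with TMM scaling, though not with library sizes alone. Of the rest, 2 passed in rat only, 11 in mouse only and 3 in neither. Over the 10892 shared genes tested in both species, 9.27% were higher in both, 10.1% lower in both, 7.3% higher in rat and lower in mouse, and 5.19% lower in rat and higher in mouse. The members lower in both made up 33.3% of the 33, and no test of these shares was made. Calls in mouse alone were common over all genes, at 24.5% higher and 22.5% lower.

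The difference of the log2 fold changes (mouse minus rat) was tested in a model over all 4 groups. That model used a common spread for all groups, although the coefficient of variation was 0.106 in rat and 0.0318 in mouse. The difference passed for 27 of the 33 members, beside 63.8% of the 10912 shared genes tested. Of the members 18 passed below 0 and 9 above, and of all shared genes 3528 below and 3431 above. These shares were not tested. The median difference was -0.43 for the members and -0.03 for all genes tested. Of the 7 antagonists, 6 had a value below 0, and Notum did not pass. Sfrp2 had the largest difference, -6.86 ± 0.17 (edgeR, adjusted P = 6.23e-15), followed by Wif1 at -4.36 ± 0.20 (edgeR, adjusted P = 5.67e-12). For Lef1 it was -3.10 ± 0.39 (edgeR, adjusted P = 2.92e-06) and for Ror1 -2.47 ± 0.24 (edgeR, adjusted P = 1.02e-07).

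Of the 12 receptors tested, 4 had a called difference above 0 and 7 below. The other called differences above 0 were in 2 of 5 ligands, 2 of 2 R-spondins and 1 of 7 transduction genes. Wnt11 had the largest difference above 0, 2.33 ± 0.50 (edgeR, adjusted P = 0.000582), with rat values near the detection limit. Without RM3 the Wnt11 difference was 3.62, and without any other library it was 1.93 to 2.42. Rspo2 was at 1.58 ± 0.48 (edgeR, adjusted P = 0.00824), where the fall was larger in rat than in mouse. Lrp5 was at 0.97 ± 0.08 and Fzd5 at 0.88 ± 0.12 (edgeR, adjusted P = 2.13e-08 and 6.47e-06). Fzd1 was at 0.28 ± 0.09 (edgeR, adjusted P = 0.0128), which became -0.02 with library sizes alone and 0.18 without RC2. The 6 members that did not pass were Apc, Ctnnb1, Fzd3, Notum, Wnt5a and Wnt10b, and for Wnt5a the value was -0.19 ± 0.12. With library sizes alone, Ctnnb1 (-0.38), Fzd3 (-0.69) and Wnt5a (-0.49) did pass (edgeR, adjusted P = 6.14e-05, 0.00786 and 0.00164). The calls of Axin2, Rspo3 and Wnt5b were then lost, at 0.54, 0.29 and 0.31 (edgeR, adjusted P = 0.123, 0.133 and 0.164).

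**Figure D4:**
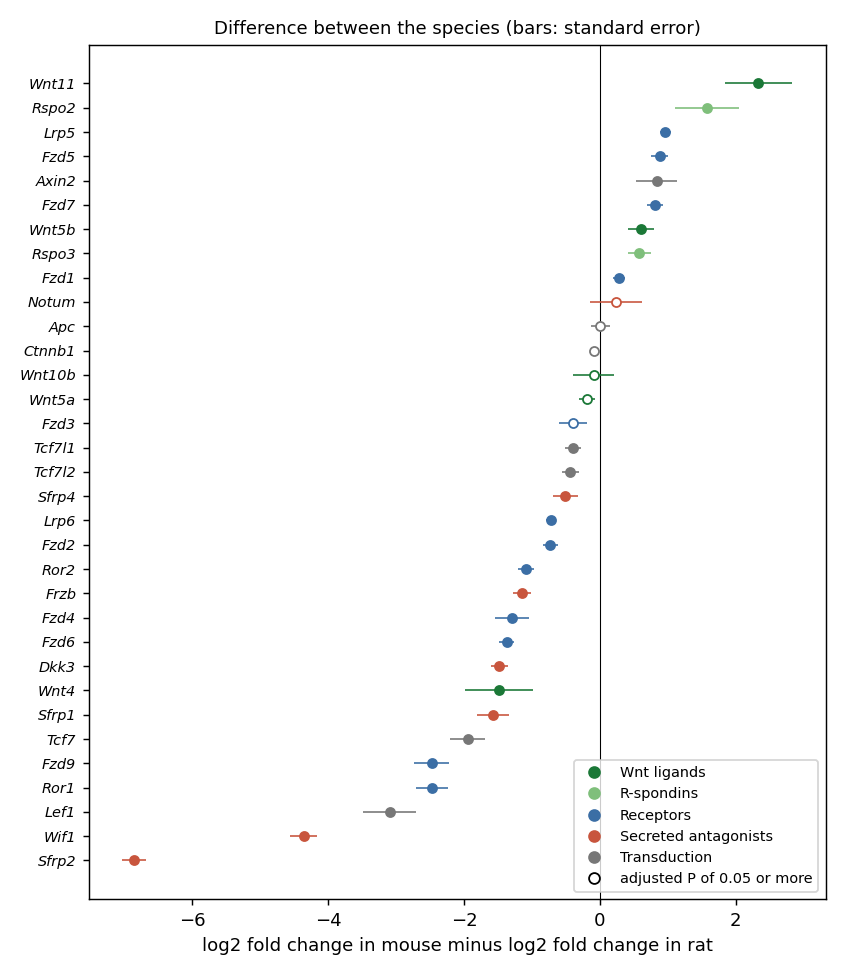
Difference between species in the log2 fold change (mouse minus rat, horizontal axis) for each of the 33 members, ordered by size, with bars of 1 standard error and filled points where the edgeR test passed. The values run from -6.86 for Sfrp2 to 2.33 for Wnt11.

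The wider pathway was described with 51 further genes of Wnt secretion, reception, transduction and planar polarity. Of 47 tested in rat, 5 had upregulated and 17 downregulated expression, beside 18.3% and 16.8% of all genes tested. Of 48 tested in mouse, 18 had upregulated and 21 downregulated expression, near the 37.4% and 37.6% of all genes tested, and with library sizes alone the counts were 11 and 30. Their median log2 fold change was -0.15 in rat and 0.02 in mouse. Nkd1, a feedback inhibitor of Dishevelled, was lower in both species, at -2.16 ± 0.19 in rat (edgeR, adjusted P = 1.61e-05) and -5.29 ± 0.15 in mouse (edgeR, adjusted P = 8.75e-40). Its mean FPKM was 6.18 in RC, 1.38 in RM, 6.79 in MC and 0.143 in MM. Nkd2, of the same family, was higher in mouse, from 0.391 ± 0.029 to 2.73 ± 0.03, a log2 fold change of 3.08 ± 0.15 (edgeR, adjusted P = 8.03e-28). Daam1, a formin of the planar polarity branch, was higher in both, at 1.05 ± 0.10 in rat (edgeR, adjusted P = 2.71e-05) and 1.68 ± 0.05 in mouse (edgeR, adjusted P = 3.87e-41). Its relative Daam2 was lower in both, with a mean FPKM of 16.2 in RC, 5.45 in RM, 10.9 in MC and 4.60 in MM, at -1.59 ± 0.08 (edgeR, adjusted P = 4.34e-07) and -0.97 ± 0.05 (edgeR, adjusted P = 1e-28).

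Upstream of the ligands, Wls, the carrier that brings Wnt proteins to the cell surface, went from a mean FPKM of 52.1 ± 0.2 in MC to 21.1 ± 0.5 in MM, a log2 fold change of -1.03 ± 0.03 (edgeR, adjusted P = 5.53e-39). Kremen1, a Dickkopf receptor, went from 12.6 ± 0.6 to 23.1 ± 0.5 in mouse, a log2 fold change of 1.15 ± 0.04 (edgeR, adjusted P = 1.97e-36). In rat Wls and Kremen1 were both called lower, at -0.35 ± 0.07 and -0.50 ± 0.10 (edgeR, adjusted P = 0.00356 and 0.00254). The glypican Gpc3 went from 35.8 ± 2.2 to 7.40 ± 0.59 in mouse and was called lower in rat too, at -0.97 ± 0.17 (edgeR, adjusted P = 0.00122). Gpc4, with a mean FPKM of 15.8 ± 0.5 in RC, 11.4 ± 0.6 in RM, 61.7 ± 2.3 in MC and 75.6 ± 0.6 in MM, was called lower in rat and higher in mouse, at -0.49 ± 0.08 and 0.57 ± 0.03 (edgeR, adjusted P = 0.000604 and 5.28e-23). In rat the further genes named by size of P were Prickle2, at 0.36 ± 0.08, and Ctnnbip1, an inhibitor of β-catenin, at 0.33 ± 0.09. In mouse Prickle2 was not called and Ctnnbip1 was lower, at -0.73 ± 0.09 (edgeR, adjusted P = 2.22e-11).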

How the data were processed

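RNA was sequenced from 12 libraries of rat and mouse chondrocytes, prepared with the NEBNext Ultra kit named in the labels. The submitters' processing notes name HISAT2, HTSeq 0.11.2 and the builds GRCm38 and Rnor_6.0. The authors deposited 1 table per species with raw counts and FPKM per gene and library. The counts were tested as deposited, and the authors' FPKM, whose scale is the library total, were used for levels.

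Groups followed the sample titles. Each species was fitted alone with edgeR 4.0.16 in R 4.3.3 (filterByExpr, TMM scaling, quasi-likelihood test, Benjamini-Hochberg over all genes tested). The difference between species was fitted over genes shared by symbol. DESeq2 1.42.0 and limma 3.58.1 were alternatives, with other scalings, no filter and each library left out. The scripts were tested on simulated data. Standard errors came from the fold change and its F statistic.

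The members and gene lists were chosen with earlier results of these data known. Members whose mean FPKM reached 1 in any group are given with full values, the rest by counts. Of the further pathway genes, the 3 with the smallest adjusted P per direction and species at that level are named. Mouse positions came from GENCODE on GRCm38. Rat positions of Rnor_6.0 were not used here, and rat promoters carry those of RefSeq GRCr8.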

Additional observations from a re-analysis of the deposited data

Results flagged for a closer look

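Of all 10912 shared genes tested, 63.8% differed between mouse and rat in edgeR's quasi-likelihood test of the difference itself (adjusted P below 0.05). The same test passed for 27 members, each value being the log2 fold change in mouse minus that in rat. The largest were the antagonists Sfrp2 (-6.86) and Wif1 (-4.36), higher in rat and lower in mouse. Among the other antagonists the value was -1.57 for Sfrp1, -1.48 for Dkk3, -1.15 for Frzb and -0.51 for Sfrp4. The Sfrp4 difference was not called by DESeq2 (adjusted P = 0.0543), nor by edgeR without MC3 or MM3 (adjusted P = 0.077 and 0.0616).

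Among the receptors the value was -2.47 for Ror1, -2.47 for Fzd9, -1.37 for Fzd6, -1.29 for Fzd4, -1.09 for Ror2, -0.73 for Fzd2 and -0.72 for Lrp6. It was 0.28 for Fzd1 (-0.02 and no call with library sizes alone), 0.81 for Fzd7, 0.88 for Fzd5 and 0.97 for Lrp5. Among ligands and R-spondins it was -1.49 for Wnt4, 0.58 for Rspo3, 0.60 for Wnt5b, 1.58 for Rspo2 and 2.33 for Wnt11. The Wnt4 difference was not called by edgeR without RM2 (adjusted P = 0.0536). With library sizes alone the calls of Rspo3 and Wnt5b were lost (0.29 and 0.31, adjusted P = 0.133 and 0.164 in edgeR). Without RM3 the Wnt11 difference was 3.62.

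Among the transduction genes the value was -3.10 for Lef1, -1.95 for Tcf7, -0.43 for Tcf7l2, -0.39 for Tcf7l1 and 0.83 for Axin2. The Axin2 difference was not called by edgeR in 5 fits that each left out RC3, RM2, RM3, MC2 or MM3, with adjusted P values of 0.053 to 0.0906, nor with library sizes alone (0.54, adjusted P = 0.123). The mouse counts behind Lef1 were 136 in MC and 9 in MM. The summed FPKM of the chondrocyte markers also moved further in mouse than in rat, and its part in these differences was not tested.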

How the results depend on the processing

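The counts of called members kept within 1.5 times under DESeq2, other scalings, no filter, limma and each library left out. The mouse members called were 7 higher and 28 lower with library sizes alone. With 1 library left out, the rat members called were 5 to 7 higher and 11 to 14 lower, the mouse members 10 to 11 higher and 24 to 25 lower, and the differing members 25 to 28. The further pathway genes were 2 to 5 higher and 12 to 19 lower in rat, with 3 higher without RC3 and 2 without RM3, and 17 to 19 higher and 20 to 21 lower in mouse.

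With the stricter criteria, 2 rat members were higher and 2 lower, 6 mouse members higher and 16 lower, 1 further rat gene higher and 3 lower, and 3 further mouse genes higher and 12 lower. With a difference of at least 0.85 required, 17 members differed between species. These counts are lower by the construction of the criteria.

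The scaling of the mouse libraries mattered most. The further mouse genes called higher were 11 with library sizes alone and 10 with limma on log2(FPKM + 1) or log2(FPKM + 0.1). Under these 3 settings, in this order, the sign turned for Apc (-0.15, -0.13, -0.15), Axin1 (-0.0248, -0.0251, -0.0267), Fzd5 (-0.16, -0.13, -0.15) and Fzd7 (-0.025, -0.0235, -0.0244) in mouse. The difference of Fzd1 was -0.0159 with library sizes alone. Under no alternative did another called value turn, while 9 values without a call, mouse Fzd5 among them, turned under at least 1. Of single calls, DESeq2 lost 2, library sizes alone lost 6 and gained 5, and the fits without 1 library lost 19 and gained 4 in all. The causes were not tested.

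The replicate numbers were not treated as pairs in the main fits. Correlations over 3 libraries per group cannot exclude a pairing. Same-numbered libraries deviated together with correlations of 0.00773 to 0.044 in mouse and 0.0157, -0.172 and 0.111 in rat. With the replicate number as a block, 5 rat members were higher and 13 lower, 10 mouse members higher and 25 lower, and 27 differed, while for the further genes the block gave 5 and 17 (rat) and 18 and 21 (mouse). Fzd6 in rat was the call lost (adjusted P = 0.052 in edgeR). Not every library correlated best with its own number. Depth limits members under the filter, which are given by counts alone.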
